A study of Mus musculus with 2 samples.

Results

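The cells described here line the 3 surfaces that separate blood, brain and cerebrospinal fluid: endothelial cells of the brain's vessels, fibroblasts of the meninges and vessel sheaths, and epithelial cells of the choroid plexus. They were chosen by the share of each cell's UMIs (unique molecular identifiers, the count of captured RNA molecules) that came from 5 genes per class. Endothelial cells had at least 0.5% of UMIs from Cldn5, Flt1, Pecam1, Ly6c1 and Slco1a4, and fibroblasts at least 0.5% from Dcn, Lum, Col1a1, Col1a2 and Slc6a13. Choroid plexus cells had at least 0.3% from Folr1, Clic6, Kl, Prlr and Otx2. Cells with 1% or more of UMIs from the mural genes Rgs5, Kcnj8, Abcc9 and Pdgfrb, which mark pericytes and smooth muscle, were left out, and no cell met 2 rules (0 cells). Of 4128 cells that could be chosen, 110 were members: 45 endothelial, 26 fibroblast and 39 choroid plexus.

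The tissue was basolateral amygdala of adult C57BL/6 mice that had received vehicle or the hormone FGF21 (1 mg/kg) daily over 3 days. For each treatment the tissue of 3 mice was pooled, digested with pronase in the presence of actinomycin D, and sorted for tdTomato fluorescence and viability. The series is about cells that express KLB, the co-receptor for FGF21; the labels used here name neither the allele or virus behind tdTomato nor the animals' sex. Each pool gave 1 library, so the 2 libraries were pooled to contrast the barriers, library values are given for the main results, and no test across animals could be made. All intervals are 95% intervals that cover counting error only.

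The blood-brain barrier is formed by endothelial cells that are sealed by tight junctions, carry nutrients through solute carriers and pump out drugs and metabolites with ABC exporters. Meningeal and perivascular fibroblasts lay down collagen and basement membrane and release retinoic acid and growth factors. Choroid plexus epithelium moves ions and water to make cerebrospinal fluid, secretes proteins such as transthyretin into it, and is closed by a leakier set of tight junction proteins.

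The vehicle library gave 31 endothelial, 19 fibroblast and 25 choroid plexus cells among 2200, and the FGF21 library gave 14, 7 and 14 among 1928. As shares of the cells that could be chosen, endothelial cells made up 1.41% (exact Clopper-Pearson interval 0.959% to 1.99%) in vehicle and 0.726% (0.398% to 1.22%) in FGF21. Fibroblasts made up 0.864% (0.521% to 1.35%) and 0.363% (0.146% to 0.747%), and choroid plexus cells 1.14% (0.737% to 1.67%) and 0.726% (0.398% to 1.22%). All 3 shares were lower in the FGF21 library, with overlapping intervals, and with 1 library per treatment the treatment, the dissection and the sort cannot be told apart. The 177 mural cells left out were 154 in vehicle and 23 in FGF21. The libraries held 11130580 and 14585503 UMIs, and 12 cell index numbers occurred in both. For 1 member the index number was also in the other library, and none (0) was a member in both.

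Depth differed between the barriers. Median UMIs per cell were 1576 and 2756 for endothelial cells in vehicle and FGF21, 3421 and 3877 for fibroblasts, and 6873 and 8512.5 for choroid plexus cells. The summed UMIs were 105990, 95086 and 328725, so a choroid plexus transcript was seen at a lower level than an endothelial or fibroblast one could be. The lowest rule share inside was 0.533% for endothelial cells and the highest outside 0.328%; for fibroblasts these were 0.605% and 0.435%. Choroid plexus cells ran up to their threshold, at 0.301% inside and 0.288% outside, with 9 members within 20% of it.

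**Figure D1:**
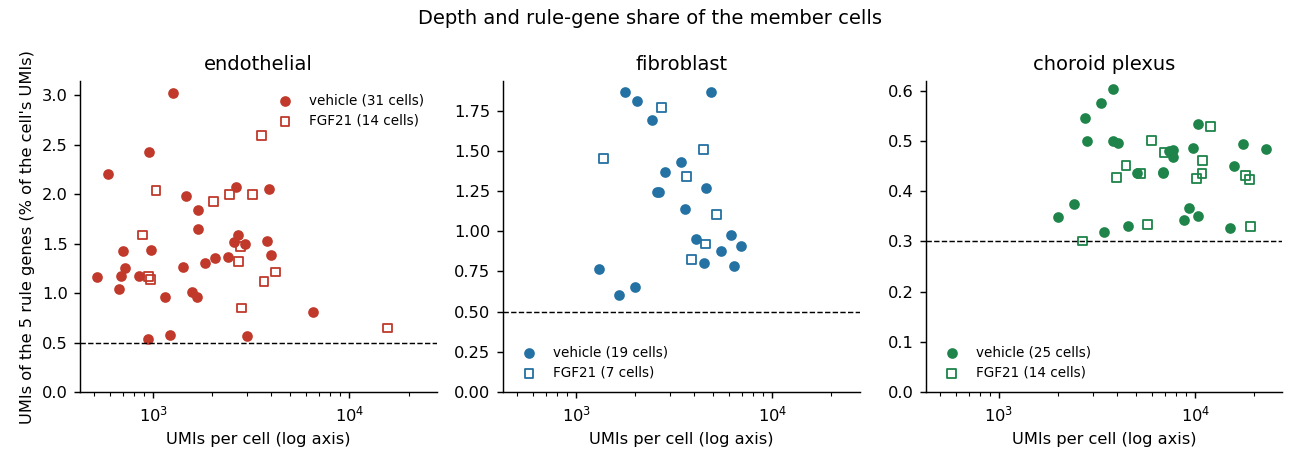
Each point is a member cell, with its UMIs on the x axis (log scale) and the percent of them from the 5 rule genes on the y axis; filled circles are vehicle, open squares FGF21, and the dashed line is the threshold. Endothelial medians lie at 1576 and 2756 UMIs and choroid plexus medians at 6873 and 8512.5, and 1 endothelial FGF21 cell stands apart at 15603 UMIs.

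The labels were set beside markers that the rule did not use. Each of the 110 members had a UMI of its own 10-gene list of such markers. The remaining cells had 1249 CPM of the fibroblast and 1445 of the choroid plexus list, so for these a single UMI does not part members from other cells. The level of all cells of the library was reached by 18 of 19 vehicle fibroblasts and by all other members. Among the genes with enough UMIs to compare, 9 of 9 endothelial markers (Cdh5, Tie1, Kdr and others), 5 of 6 fibroblast markers (Col3a1, Pdgfra, Ogn, Bgn, Slc13a4) and 8 of 9 choroid plexus markers (Ttr, Kcnj13, Calml4, Trpm3 and others) were at least 4-fold higher in their barrier than in each of the other two. The exceptions were Mgp, which was highest in endothelial cells, and Slc12a2. Since the cells were chosen on their RNA, these counts describe the classes and test nothing.

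Markers of other cells were counted in all 3 barriers. The 10 microglia markers together stood at 26.1% to 43.1% of their level in all cells of the same library. The 5 erythroid markers stood at 24.8% to 47.8% of theirs. After subtraction of a background scaled to the microglia markers, 236 endothelial, 225 fibroblast and 406 choroid plexus genes met the 4-fold rule used below, against 138, 125 and 282 without it, of which it kept 138, 123 and 282. With at least 5 UMIs and the library level or more of microglia, oligodendrocyte lineage, astrocyte, neuron or erythroid markers, 5 of 31 vehicle and 2 of 14 FGF21 endothelial members stood out, and none (0) of the fibroblasts or choroid plexus cells. In 1 vehicle endothelial cell of 6520 UMIs the microglia markers reached 4.31% of UMIs. In 1 FGF21 endothelial cell of 15603 UMIs, which held 33.3% of the endothelial UMIs of its library, the astrocyte markers reached 1.24%. Astrocyte markers stood at 190.8% of the library level in FGF21 endothelial cells and at 47.9% in vehicle ones. That cell held 87.9% of the endothelial Aldoc UMIs, 63.4% of Slc1a2 and 76.9% of Fgfr3. Pooled endothelial Aldoc stood at 623 CPM with it and 88.5 without it, and Slc1a2 at 1340 and 575. Values of Slc6a6, Sema3g, Fn1, Fgfr1 and Fgfr3 are given with and without it below. Other levels of FGF21 and pooled endothelial cells include it.

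Promoters of 3 genes that part the barriers are shown first: Cldn5, the claudin of the endothelium, Cldn2, that of the choroid plexus, and Aldh1a2, the retinoic acid synthase that among the barriers had UMIs only in fibroblasts. Each runs 5′ to 3′ from 250 bases before to 50 after the gene's start, from RefSeq on GRCm38.p6; capitals mark matches to a motif.
Cldn5 (chr16:18776597-18776896, + strand): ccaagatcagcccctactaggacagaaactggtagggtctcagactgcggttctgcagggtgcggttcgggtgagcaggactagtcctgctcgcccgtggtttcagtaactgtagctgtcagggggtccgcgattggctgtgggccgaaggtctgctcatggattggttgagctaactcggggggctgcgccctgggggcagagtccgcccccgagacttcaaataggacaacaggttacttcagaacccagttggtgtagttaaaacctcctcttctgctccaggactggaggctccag
Cldn2 (chrX:139800558-139800857, + strand): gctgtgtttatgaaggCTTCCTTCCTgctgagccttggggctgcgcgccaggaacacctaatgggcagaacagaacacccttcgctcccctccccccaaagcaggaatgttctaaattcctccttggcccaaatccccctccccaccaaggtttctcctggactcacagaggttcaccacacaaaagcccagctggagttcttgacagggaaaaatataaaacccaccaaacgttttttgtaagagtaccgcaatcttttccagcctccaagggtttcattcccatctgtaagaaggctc
Aldh1a2 (chr9:71215539-71215838, + strand): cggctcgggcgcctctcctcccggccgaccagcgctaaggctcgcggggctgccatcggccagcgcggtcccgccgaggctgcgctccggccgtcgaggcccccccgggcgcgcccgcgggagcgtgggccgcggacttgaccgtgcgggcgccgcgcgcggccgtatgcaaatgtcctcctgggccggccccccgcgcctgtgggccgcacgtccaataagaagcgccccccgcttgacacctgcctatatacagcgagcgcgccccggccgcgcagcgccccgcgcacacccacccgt
The motifs searched, on both strands, were AGGAAG (ETS factors), AACAAT (SOX), TAATCC (OTX) and GTAAACA (FOX), which occur in 35.1%, 10.9%, 7.16% and 3.55% of 27025 promoters of that length. The Cldn2 window held 2 matches to the ETS letters on the opposite strand, overlapping each other, 234 and 230 bases before the start. The Cldn5 and Aldh1a2 windows held none (0 matches). The 3 windows differed in base composition: G and C made up 58.3% of Cldn5, 51.3% of Cldn2 and 78% of Aldh1a2, with 12, 5 and 50 CpG dinucleotides, against medians of 52.7% and 7 over all promoters.

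Levels are given as CPM, the gene's UMIs scaled to the usual count-per-million total of the barrier, and a gene was counted for a barrier when its CPM was at least 4-fold that of each of the 2 others, among the 4151 genes outside the rule with at least 30 UMIs over the 3 barriers. That count was 138 genes for endothelial cells (3.32% of those compared), 125 for fibroblasts (3.01%) and 282 for choroid plexus cells (6.79%). These are the shares to set beside each count of list members below. In both libraries taken alone, 137, 124 and 279 of these were higher in the same barrier, and 76, 98 and 133 were at least 4-fold higher. Of these genes, 125, 120 and 275 were also at least 2-fold above the remaining 4018 cells, and 13, 12 and 42 had no UMI in either other barrier. After thinning the summed UMIs of each barrier to the smallest total, 2124 genes could be compared, and the counts were 106 (4.99%), 105 (4.94%) and 133 (6.26%). Doubling the rule's percentages left 1 choroid plexus cell.

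Genes counted for a barrier were often also present in the mural cells left out. Of the 125 fibroblast genes, 34 (27.2%) had a mural level of at least 0.5 times the fibroblast level, against 21 of 138 endothelial genes (15.2%) and 10 of 282 choroid plexus genes (3.55%). A mural level at least as high as that of the barrier was found for 10 fibroblast, 14 endothelial and 2 choroid plexus genes. Vtn, which encodes vitronectin, had 5753 CPM in fibroblasts, 198 in endothelial cells and 128 in choroid plexus cells, and 10278 in the mural cells left out. The 8 mural markers, of which Vtn is 1, summed to 6495 and 5426 CPM in vehicle and FGF21 fibroblasts. These were 353.5% and 1210.1% of the library levels, which were 1837 and 448 CPM. Vtn made up 5753 of the pooled 6205 CPM, and Acta2 and Myh11 had no UMI in fibroblasts (0). The part of mural RNA in the fibroblast counts was not tested. Slc6a20a, a proline carrier, had 1136 CPM in fibroblasts and 1595 in mural cells. Igfbp7 was endothelial among the barriers, at 2019 CPM against 158 in fibroblasts and 79.1 in choroid plexus cells, and stood at 3866 CPM in mural cells.

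**Figure D2:**
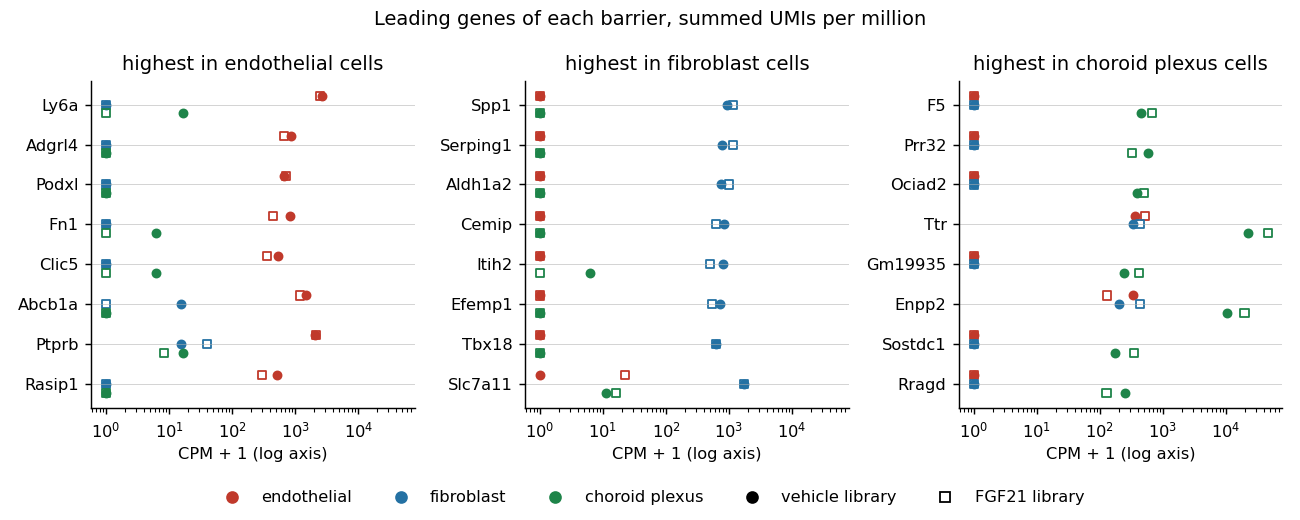
For the 8 genes with the highest ratio in each barrier, the x axis gives CPM + 1 on a log axis, by barrier (colour) and library (filled circle vehicle, open square FGF21). Points at 1 are genes without a UMI; the other barriers lie highest for Ttr and Enpp2, at 128 to 512 CPM.

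The leading endothelial genes were Ly6a, Adgrl4, Podxl, Fn1, Clic5, Abcb1a, Ptprb and Rasip1. Abcb1a, which encodes the drug exporter P-glycoprotein, had 142 UMIs in 34 of 45 endothelial cells, 1 in fibroblasts and none in choroid plexus cells. Its level was 1471 CPM in the vehicle and 1174 in the FGF21 endothelial cells, and the pooled ratio to fibroblasts was 127 (22.5 to 5067). Ly6a, a surface antigen, had 2621 and 2518 CPM in the 2 libraries, no UMI in fibroblasts and 3 UMIs in choroid plexus cells, a ratio of 282 (95.6 to 1377). Ptprb, the endothelial phosphatase that tunes the Tie2 receptor, had 2080 and 2134 CPM. Adgrl4 and Podxl, an adhesion receptor and a sialomucin of the luminal surface, had 81 and 73 UMIs and none in the other barriers, at least 24.2-fold and 21.8-fold higher with a floor of 3 UMIs per barrier.

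Most genes of the blood-brain barrier carrier list were endothelial. Of 13 compared, 9, among them Slc9a3r2, which encodes a scaffold protein and not a carrier, were at least 4-fold higher in endothelial cells (the share over all compared genes was 3.32%) and none in another barrier. Slc2a1, the glucose carrier, stood at 1991 CPM (1731 to 2278) against 10.5 in fibroblasts and 27.4 in choroid plexus cells, with 2351 and 1536 CPM in vehicle and FGF21. Slco1c1, the thyroxine carrier, had 1557 CPM in endothelial cells, 198 in choroid plexus cells and 21 in fibroblasts. Slc6a6, which carries taurine, had 812 CPM in vehicle and 1878 in FGF21 endothelial cells, and 2367 in the latter without the cell of 15603 UMIs. Slc7a5, which carries large neutral amino acids, had 462 CPM against 31.5 in fibroblasts, and Mfsd2a, the lipid carrier that restrains transcytosis, 283 against 33.5 in choroid plexus cells. Slc3a2, Slc38a3 and Slc22a8 were among those that did not reach 4-fold, and Slc22a8 was higher in fibroblasts, at 684 CPM against 406.

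Of 7 ABC exporters, 2 were endothelial (28.6%, against 3.32% over all genes), Abcb1a and Abcg2, the latter at 462 CPM against 42.1 in fibroblasts. Abca8a was fibroblastic (14.3%, against 3.01%), with 60 UMIs, 3 in choroid plexus and none in endothelial cells. The others were counted for no barrier. Abca1, a cholesterol exporter, was spread, at 170 CPM in endothelial cells, 305 in fibroblasts and 155 in choroid plexus cells.

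Of the claudins, which set how tight a junction is, only Cldn2 and Cldn11 had enough UMIs to compare outside the rule, and Cldn2 was counted for choroid plexus cells. Cldn5 was used by the rule, so its endothelial level of 2717 CPM is a description: 288 UMIs in 43 of 45 endothelial cells, 1 in a fibroblast and none in choroid plexus cells. Cldn2, a claudin that forms a channel for cations and water, had 43 UMIs in 22 of 39 choroid plexus cells, at 134 CPM in vehicle and 126 in FGF21, and none in the other barriers, at least 4.15-fold higher. Cldn1 had 12 UMIs and Cldn9 had 5, all in choroid plexus cells; a count of 0 allows up to 28.3 CPM (3 UMIs) in endothelial cells and 31.5 in fibroblasts, and Cldn1 stood at 36.5 CPM and Cldn9 at 15.2, so for Cldn9 no difference was detectable at this depth and for Cldn1 the level lay just above the limits. Cldn11, a claudin of myelin and of meningeal cells, did not part the barriers, at 123, 137 and 110 CPM in endothelial, fibroblast and choroid plexus cells, and was higher in the remaining cells, at 448 CPM. Cldn10 and Cldn12 had 12 and 9 UMIs in all, and Cldn7, Cldn15 and Cldn19 had none.

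**Figure D3:**
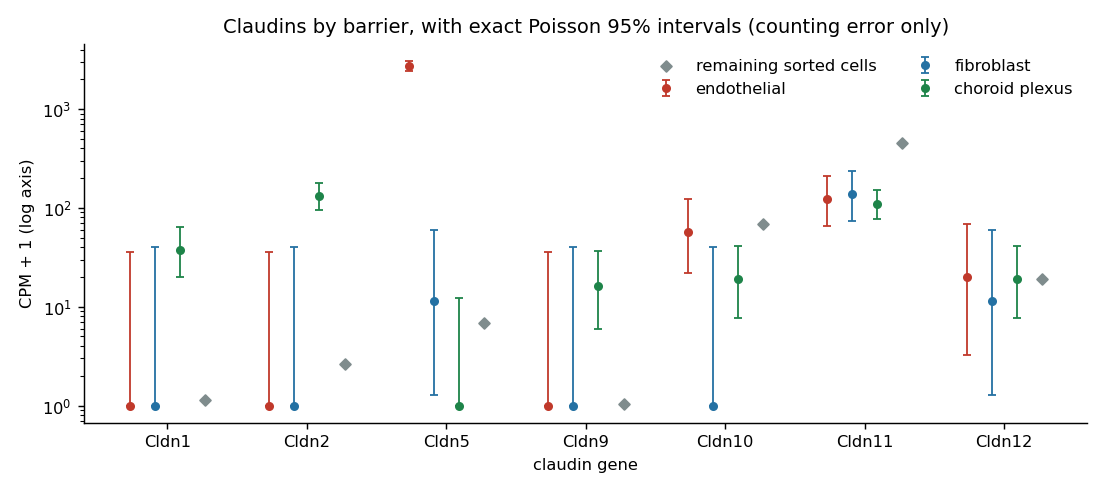
CPM + 1 on a log axis for the 7 claudins with a UMI in any barrier, with exact Poisson 95% intervals, and the remaining sorted cells as grey diamonds. Cldn5 reaches 2717 CPM in endothelial cells and Cldn2 131 CPM in choroid plexus cells, while Cldn11 is 110 to 137 CPM in all 3.

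Of 11 other junction genes, 3 were endothelial (27.3%, against 3.32% over all genes). These were Ocln (occludin, 217 CPM against 24.3 in choroid plexus cells), Esam (519 against 21) and Cdh5 (VE-cadherin, 274 against 31.5). Gjb2, a connexin, was fibroblastic (9.09%, against 3.01%), with 39 UMIs in 10 of 26 fibroblasts and none in the other barriers. Tjp1, the scaffold of tight junctions, did not part endothelial cells from fibroblasts, at 340 and 305 CPM, and stood at 51.7 in choroid plexus cells.

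Signalling genes of the vessel wall followed. Of 5 receptors for VEGF, angiopoietin and TGF-beta, 4 were endothelial (Kdr, Tek, Tie1 and Acvrl1), and of 7 genes of the Wnt and norrin pathway, which keeps brain vessels tight, 4 were (Fzd4, Lef1, Sox17 and Foxq1). Lef1, a Wnt effector, had 226 CPM against 31.5 in fibroblasts. Kdr, the main VEGF receptor, had 1133 CPM in vehicle and 256 in FGF21 endothelial cells, and 1 cell held 45.6% of its UMIs. Of 10 endothelial transcription factors, 7 were endothelial, among them Klf2 and Klf4, which respond to blood flow, at 877 and 613 CPM, and Foxc1 was fibroblastic. Of 6 genes of leukocyte adhesion and antigen presentation, 3 were endothelial (50%, against 3.32% over all genes): Cd34, H2-D1 and H2-K1.

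UMIs of the capillary, arterial and venous lists were all found in endothelial cells. All 45 cells had a UMI of the 9-gene capillary list, 26 of the arterial list and 29 of the venous list; 15 had both arterial and venous UMIs and 5 neither. The capillary list summed to 9860 CPM in vehicle and 7874 in FGF21 endothelial cells, against 673 in the remaining cells, and Spock2 alone gave 3934 of the pooled 8982 CPM. The arterial list summed to 693 and 2049 CPM, from 41 UMIs in 16 of 31 and 96 UMIs in 10 of 14 cells, and the venous list to 1962 and 790 CPM, from 116 and 37 UMIs. The remaining cells had 81.4 CPM of the arterial and 413 of the venous list. Against fibroblasts, pooled endothelial levels were 8982 and 1178 CPM for the capillary list and 1293 and 536 for the arterial list. The venous list was no higher in endothelial cells, at 1444 CPM against 1798 in fibroblasts. Of its 4 genes compared, Lcn2 was endothelial, Nr2f2 was fibroblastic, and Vcam1 and Ctsc were counted for no barrier. Single cells weighed heavily: 1 cell held 26% of the FGF21 arterial UMIs and 1 held 40.5% of the vehicle venous UMIs. Lcn2, a venous and inflammatory gene, came from 5 vehicle cells, 1 of which held 57.1% of its 35 UMIs. Sema3g, an arterial gene, had 68 CPM in vehicle and 598 in FGF21, and 736 without the cell of 15603 UMIs. Mural markers were higher in the same library as the arterial list: they summed to 643 CPM in vehicle and 1280 in FGF21 endothelial cells; its part was not tested.

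The leading fibroblast genes were Spp1, Serping1, Aldh1a2, Cemip, Itih2, Efemp1, Tbx18 and Slc7a11. Spp1 (chr5:104435118-104441050, + strand), which encodes osteopontin, had 924 and 1163 CPM in the vehicle and FGF21 fibroblasts and no UMI in the other barriers, at least 34.9-fold higher, and was seen in 15 of 26 cells. Serping1, the C1 inhibitor of complement, had 765 and 1163 CPM and was likewise at 0 elsewhere, at least 30.8-fold higher. Slc7a11, the cystine and glutamate exchanger, had 1732 and 1744 CPM in 25 of 26 fibroblasts, 143-fold (54.7 to 529.6) its choroid plexus level. Cemip, which breaks down hyaluronan, had 74 UMIs and none in the other barriers.

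Matrix genes were mostly fibroblastic. Of 10 collagens, 7 were fibroblastic (3.01% over all genes): Col3a1, Col4a5, Col6a1, Col6a2, Col12a1, Col13a1 and Col15a1. Col15a1 had 1862 and 1976 CPM in the 2 libraries against 66 in endothelial cells, a ratio of 28.7 (13.6 to 72.3). The vascular collagens Col4a1 and Col4a2 were shared, at 1525 and 568 CPM in fibroblasts and 793 and 311 in endothelial cells, and Col8a1 was the only one counted for choroid plexus cells. Of 9 laminin and basement membrane genes, 5 were fibroblastic (Lama1, Lama2, Lamb1, Lamc1, Nid1), and Agrn was endothelial. Nid1, which links laminin to collagen, had 1115 CPM in fibroblasts and 1040 in mural cells. Of 13 proteoglycans and matrix glycoproteins, 7 were fibroblastic and 2 endothelial, Fn1 and Mgp. Fn1, fibronectin, had 829 CPM in vehicle and 448 in FGF21 endothelial cells, and no UMI in fibroblasts. Without the endothelial cell with the most UMIs, the FGF21 level of Fn1 was 608 CPM.

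Transcription factors of the meninges were fibroblastic for all 4 compared: Foxc1, Tbx18, Zic1 and Zic4. Tbx18 had 621 and 620 CPM in the 2 libraries and no UMI in the other barriers; its mural level was 214 CPM. Zic1 had 957 CPM in fibroblasts, 149 in choroid plexus cells and 9.43 in endothelial cells.

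Among retinoid genes, Aldh1a1 and Aldh1a2, which make retinoic acid, had 1094 and 820 CPM in fibroblasts, against 18.9 and none in endothelial cells, and neither had a UMI in choroid plexus cells. Aldh1a2 was found in 17 of 26 fibroblasts, with 751 CPM in vehicle and 1008 in FGF21. Rdh5, a retinol dehydrogenase, had 173 CPM in choroid plexus cells, 9.43 in endothelial cells and no UMI in fibroblasts.

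Secreted signals were mostly fibroblastic. The list of BMP, WNT and IGF genes also held Il33 and Cxcl12, which are of none of these families. Of its 10 genes compared, 8 were counted for fibroblasts (80%, against 3.01% over all genes). These were Bmp4, Bmp6, Bmp7, Wnt5a, Igfbp2, Igfbp4, Igfbp5 and Il33. Igfbp5 rested on 5 vehicle cells, with 1501 CPM there and none in FGF21. Bmp6 had 452 CPM in fibroblasts, 42.6 in choroid plexus cells and none in endothelial cells. Cyp1b1, an enzyme of steroid and retinoid metabolism, had 1420 CPM in fibroblasts, against 47.2 in endothelial cells.

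Fibroblasts were not alike. Ptgds, prostaglandin D synthase, a known meningeal product, ranged from 0 to 13% of UMIs over the 26 cells with a median of 0.114%, and 1 cell held 22.2% of its UMIs. It stood at 16238 CPM in vehicle and 2907 in FGF21. Slc22a6, an organic anion carrier of the meninges, was seen in 16 cells, Slc13a4, a sulfate carrier, in 13, and Gjb2 in 10.

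The leading choroid plexus genes were F5, Prr32, Ociad2, Ttr, Gm19935, Enpp2, Sostdc1 and Rragd. Ttr, which encodes the thyroxine carrier transthyretin, had 22292 CPM in vehicle and 45839 in FGF21 choroid plexus cells. Its level was 425 CPM in endothelial cells, 358 in fibroblasts and 451 in the remaining cells, an even low level outside the choroid plexus. Enpp2, or autotaxin, which makes lysophosphatidic acid, had 10514 and 19629 CPM, 54.2-fold (36.7 to 83.9) its fibroblast level. These ratios depended on the cells and on background: with the pseudocount, that of Enpp2 was 53.1, and it was 33.4 without members over 10% mitochondrial UMIs, 615 after background subtraction and 7.75 under the doubled rule, which left 1 choroid plexus cell. That of Ttr to endothelial cells was 74.4, and 40.8, 383 and 28.6 under the same changes, and 107 with each cell weighted equally. F5 (chr1:164151838-164220277, + strand), coagulation factor V, had 178 UMIs in 31 of 39 cells and none in the other barriers, at least 17.2-fold higher. Sostdc1, a BMP and WNT antagonist, had 81 UMIs and none elsewhere among the barriers, at least 7.81-fold higher.

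Of 15 genes of ion transport into cerebrospinal fluid, 9 were counted for choroid plexus cells (6.79% over all genes) and none for another barrier. Stk39, the kinase that switches on chloride cotransport, had 1874 CPM against 73.6 in fibroblasts. Car2, carbonic anhydrase, had 1743 against 264 in endothelial cells. Kcnj13 and Slc4a5, a potassium channel and a bicarbonate cotransporter, had 44 and 48 UMIs and none in the other barriers. Slc12a2, the chloride cotransporter, did not reach 4-fold, at 286 CPM against 160 in endothelial cells, and mural cells had 1421 CPM. Among choroid plexus cells it stood at 126 CPM in the 13 with least Ttr and 580 in the 13 with most.

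Not all products credited to the choroid plexus were counted for it. Of 13 such secreted products, 5 were choroid plexus genes (38.5%, against 6.79% over all genes): Ttr, Enpp2, Sostdc1, F5 and 1500015O10Rik. Another 4 were fibroblast genes (30.8%, against 3.01%): Igfbp2, Cp, Ptgds and Bmp7. Cp, ceruloplasmin, had 1819 CPM in fibroblasts, 283 in endothelial cells and 21.3 in choroid plexus cells. Igfbp2, which binds insulin-like growth factors, had 810 CPM in fibroblasts and 158 in choroid plexus cells. The latter level is pooled over unlike cells: it was 25.2 CPM in the 13 choroid plexus cells with least Ttr and 397 in the 13 with most.

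All 5 motile cilia genes compared (Foxj1, Rsph1, Dynlrb2, Cfap126 and Pifo) were choroid plexus genes. Foxj1, the master factor of motile cilia, had 57 UMIs in 22 of 39 cells and none in the other barriers. These genes also mark ependymal cells, which line the ventricles. The ependymal list summed to 933 and 616 CPM in vehicle and FGF21 choroid plexus cells, and its members Ccdc153 and Fam183b had no UMI in any barrier (0); the part of ependymal RNA was not tested. Of 24 nuclear genes of the respiratory chain, 11 were choroid plexus genes (45.8%, against 6.79% over all genes). Examples were Atp5g1 at 1923 CPM against 113 in endothelial cells and Ndufa4 at 1116 against 105 in fibroblasts. Of 12 genes encoded in the mitochondria themselves none was at least 4-fold higher in any barrier, and the order of their sums differed between libraries. In vehicle they summed to 32744 CPM in choroid plexus cells, 67592 in fibroblasts and 78034 in endothelial cells, and in FGF21 to 84015, 58172 and 80897.

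**Figure D4:**
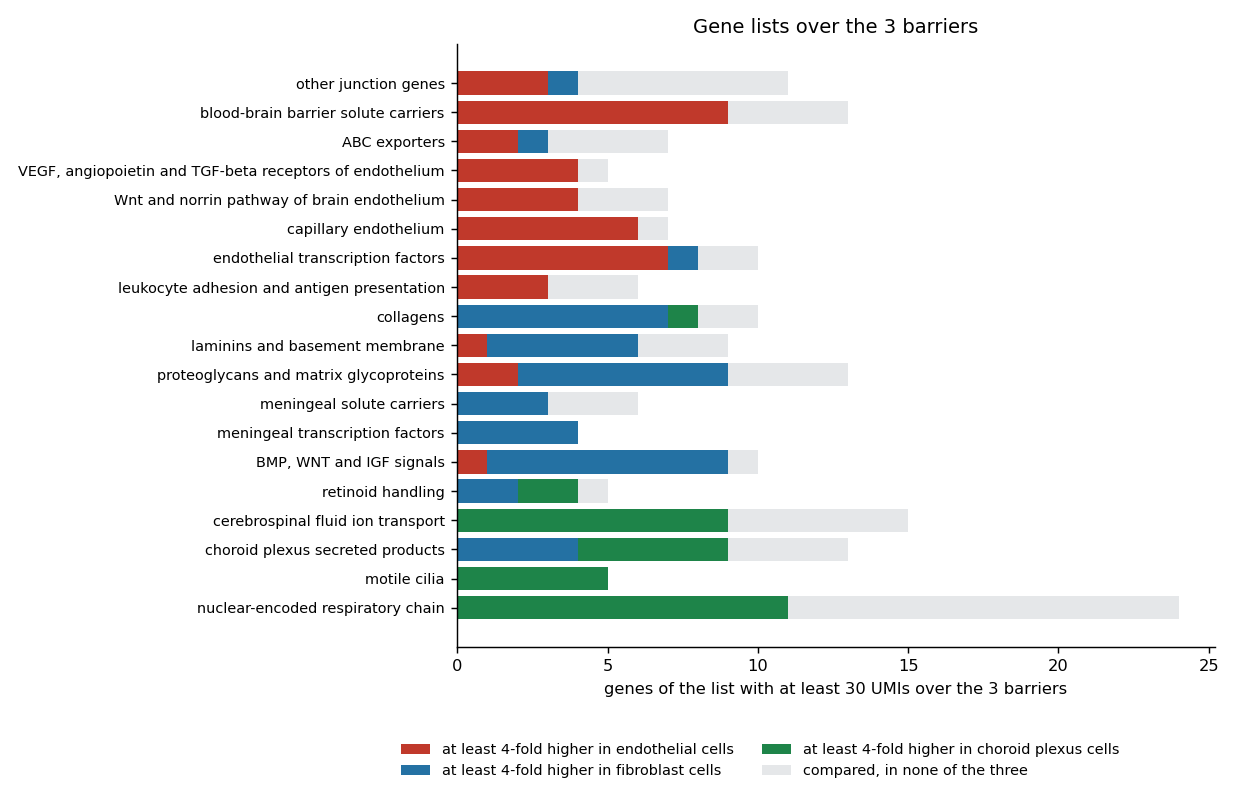
Bars count the genes of each list with at least 30 UMIs over the 3 barriers, coloured by the barrier in which they were at least 4-fold higher than in each of the other two, grey if in none. Solute carriers of the blood-brain barrier (9 of 13), collagens (7 of 10) and ion transport genes (9 of 15) each lie mostly in 1 barrier.

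The 39 choroid plexus cells formed a series rather than a uniform class. Their Ttr share ran from 0.343% to 13.2% of UMIs, and Enpp2 ran with it (Spearman's rho 0.96 over 39 cells; 0.93 within vehicle and 0.93 within FGF21). The 13 cells with least Ttr had a median Enpp2 share of 0.233%, and the 13 with most had 3.74%. Htr2c, the serotonin receptor of this epithelium, went the same way, at 58.9 and 519 CPM, as did Kcnj13, at 33.7 and 397 CPM. Hspa5, a chaperone of the endoplasmic reticulum, was at 210 and 1740 CPM.

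Mitochondrial RNA moved with Ttr too. Its median share was 1.64% of UMIs in the 13 cells with least Ttr, 2.29% in the middle 13 and 14.1% in the 13 with most (rho 0.87; 0.79 within vehicle and 0.82 within FGF21). Nuclear-encoded respiratory genes went the other way, with medians of 2.23%, 1.97% and 1.22% (rho -0.65; -0.61 and -0.64). Motile cilia genes were lower where Ttr was higher, at 1170 CPM, 1018 and 244 (rho -0.73, and -0.61 and -0.82 within the libraries). The transcription factor Otx2, used by the rule, stood at 1868, 1413 and 794 CPM (rho -0.6, with -0.58 within vehicle and -0.22 within FGF21). The other rule genes differed in direction. From the set with least to that with most Ttr, Clic6 went from 1060 to 717 CPM. Over the same sets Kl went from 917 to 1709, Prlr from 286 to 1282 and Folr1 from 58.9 to 183. The 3 sets of 13 cells had median depths of 7667, 10297 and 4041 UMIs. These are shares of the same cells' UMIs, which sum to a fixed total, and the part of cell integrity or depth in this order was not tested.

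The libraries lay at different places in this series. Vehicle cells had a median Ttr share of 1.25% (0.343% to 13.2%) and FGF21 cells 5.06% (0.966% to 10.9%). Of the 13 cells with least Ttr, 12 were vehicle and 1 FGF21, and of the 13 with most, 6 and 7. Median mitochondrial shares were 2.11% and 7.73% in the 2 libraries. The ranges overlapped, and library and treatment cannot be told apart, and the higher Ttr level of the FGF21 choroid plexus cells stands beside a higher mitochondrial share. Without the members over 10% mitochondrial UMIs, 27 choroid plexus cells and 280 choroid plexus genes were left, 243 of them shared with the 282.

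**Figure D5:**
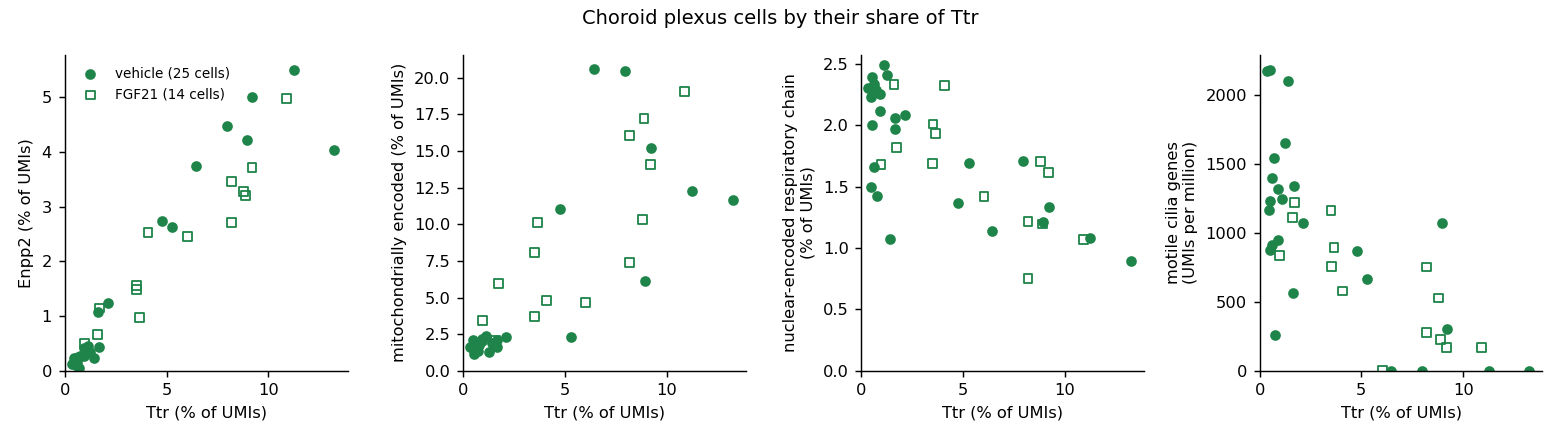
Each point is 1 of 39 choroid plexus cells (filled circles 25 vehicle, open squares 14 FGF21) with its Ttr share on the x axis and, from left to right, the shares of Enpp2, mitochondrially encoded RNA and nuclear respiratory chain genes and the CPM of motile cilia genes. Enpp2 and mitochondrial RNA are high where Ttr is high, while cilia genes go from 1170 CPM in the 13 cells with least Ttr to 244 in the 13 with most.

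Genes were also ranked for each pair of barriers by the ratio of the lower of the pair to the other barrier. Cxcl12, the chemokine that holds leukocytes and precursor cells, had 1236 CPM in endothelial cells and 873 in fibroblasts and no UMI in choroid plexus cells. Itih5, which stabilises hyaluronan, had 5532 CPM in fibroblasts, 557 in endothelial cells and 9.13 in choroid plexus cells. Cavin2, a coat protein of caveolae, and Ablim1, which binds actin, had 642 and 877 CPM in endothelial cells, 116 and 237 in choroid plexus cells and no UMI in fibroblasts. For fibroblasts and choroid plexus cells the same ranking gave Igfbp2, Zic1, Bmp7 and Prelp, all of which were counted for fibroblasts alone. Prelp, a matrix proteoglycan, had 2198 CPM in fibroblasts, 176 in choroid plexus cells and 56.6 in endothelial cells.

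FGF receptors differed too. Fgfr1 had 63 UMIs in 21 of 26 fibroblasts (722 CPM in vehicle, 504 in FGF21), 11.7-fold (5.09 to 33.1) its endothelial level of 56.6 CPM, which was 11.1 without the cell of 15603 UMIs; choroid plexus cells had 45.6. Fgfr3 had 13 UMIs in endothelial cells, 3 without that cell, and Klb had 1 UMI in 1 fibroblast and none in the other members, which allows up to 28.3 CPM in endothelial and 9.13 in choroid plexus cells.

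The sorted marker was present but sparse. UMIs of the tdTomato column were found in 9 of 31 and 4 of 14 endothelial cells, 6 of 19 and 5 of 7 fibroblasts, and 15 of 25 and 8 of 14 choroid plexus cells in vehicle and FGF21, against 21% and 35% of the remaining cells at median depths of 4372 and 6970 UMIs. As levels, the members had 96.4 to 388 CPM, the mural cells left out 179 and 192, and the remaining cells 59.6 and 73.1. Thinned to 500 UMIs per cell, 6 of 31 and 0 of 14 endothelial cells kept a UMI. So did 1 of 19 and 1 of 7 fibroblasts, and 3 of 25 and 0 of 14 choroid plexus cells. Among the mural cells 11.7% and 13% did, and among the rest 2.68% and 4.33%. Whether a member held the marker or free RNA of other cells cannot be told apart.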

How the data were processed

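Single cells were profiled with BD Rhapsody whole-transcriptome sequencing. The deposited values are UMI counts for each cell and gene, corrected by the RSEC method; per the file headers they come from version 1.9.1 of BD's WTA Rhapsody Analysis Pipeline. The genome build was GRCm38, per the submitters' processing notes; aligner settings and annotation: not given in the sources used here. There were 2925 vehicle and 2455 FGF21 barcodes. Gene identity in genes with near-identical copies or antisense partners may be mixed.

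Of these, 2354 and 1951 passed minimums of 500 UMIs and 300 genes and a maximum of 25% mitochondrial UMIs. The members, gene lists and naming rule were chosen with earlier results of these data known. CPM is a gene's summed UMIs in a barrier over that barrier's total. Counts of genes used a pseudocount of 0.5 UMIs and genes with at least 30 UMIs over the barriers, without the 19 rule genes. Levels have exact Poisson intervals, ratios exact conditional-binomial ones and shares exact Clopper-Pearson ones. With 1 library per treatment no test was made and no p-value is given. A comparison of treatments gene by gene was planned only for barriers with at least 15 cells in each library, and no barrier had them. A level against 0 UMIs used a floor of 3 UMIs per barrier. The calling step was tested on simulated data.

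Named genes were, per barrier, the 8 with the highest ratio among those outside the rule that had 30 or more UMIs, were detected in 25% or more of cells, had no more than 20% of UMIs in 1 cell and were higher in both libraries, apart from genes for haemoglobin, ribosomal proteins and mitochondrial transcripts. To these came 4 genes per pair of barriers, all claudins and FGF receptors, and the 3 most abundant members of each of 42 lists. Other list members were named after their values were seen. Alternatives were doubled rule percentages, a minimum of 1000 UMIs per cell, Scrublet doublets (0.767% of cells, of which 0 members) or members with other types' markers left out, equal weight per cell, each library alone, other minimum UMIs, a pseudocount of 1, background subtraction and, chosen after seeing the data, equal summed UMIs per barrier, the endothelial cell with the most UMIs left out, and members over 10% mitochondrial UMIs left out. Gene positions are from the GENCODE mouse annotation of GRCm38. Promoters and motifs came from RefSeq on GRCm38.p6. Python 3.11.15, numpy 2.4.6, scipy 1.17.1, pandas 2.3.3 and scanpy 1.11.5 were used. Some genes are not reported here.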

Additional observations from a re-analysis of the deposited data

How the results depend on the processing

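No paired analysis was possible because each treatment had 1 library. A minimum of 1000 UMIs per cell left 32 endothelial cells. Doubled rule percentages left 15 fibroblasts and 1 choroid plexus cell. They gave 63, 50 and 42 genes at least 4-fold higher in endothelial, fibroblast and choroid plexus cells. These were 9.36%, 7.43% and 6.24% of 673 genes compared. Of the last 42, 17 were among the 282. The vehicle library alone gave 89 endothelial genes (3.54% of 2512 compared). The FGF21 library alone gave 39, 30 and 86 (3.01%, 2.32% and 6.64% of 1295 compared). In the main run the shares were 3.32%, 3.01% and 6.79% of 4151, so fewer genes passed the minimum in 1 library. With genes of at least 1 UMI the counts were 641, 635 and 577 (4.33%, 4.29% and 3.9% of 14803). With at least 100 UMIs they were 24, 26 and 120 (2.63%, 2.85% and 13.2% of 911). Background subtraction gave 236 endothelial and 225 fibroblast genes (5.69% and 5.42% of 4151), and the cause was not tested. With each barrier's summed UMIs thinned to the smallest total, 133 choroid plexus genes of 2124 compared were counted; UMIs per cell and cell numbers were not matched. Leaving out members over 10% mitochondrial UMIs left 30 endothelial and 27 choroid plexus cells. The other alternatives kept these counts within 1.5 times. Of 396 recomputed ratios of 36 named genes, 381 stayed within their counting interval, 15 moved beyond it and 0 turned. Leaving out the endothelial cell with the most UMIs gave 141, 129 and 297 genes. Alternatives of the gene-by-gene treatment comparison were not run, since no barrier had enough cells.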

Other observations

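Of the 383 barcodes left out for more than 25% mitochondrial UMIs, 2 met the endothelial rule, 1 the fibroblast and 1 the choroid plexus rule, all in the FGF21 library. The choroid plexus barcode had 7892 UMIs, 30.3% of them mitochondrial and 12.5% from Ttr. Of 692 barcodes under the UMI or gene minimum, 4 met the endothelial rule, 3 vehicle and 1 FGF21, with a median of 345.5 UMIs.

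Few detoxifying enzymes were counted for a barrier. Of 12 compared, 2 were choroid plexus genes (16.7%, against 6.79% over all genes). These were Maob, a monoamine oxidase, at 335 CPM, and Nqo1, a quinone reductase, at 119 CPM. Maoa was endothelial, at 189 CPM, and Cyp1b1 fibroblastic, each 8.33% of the 12, against 3.32% and 3.01% over all genes. The rest were counted for no barrier. Of 5 complement and defence genes, Serping1 and Il34, a growth factor of microglia, were fibroblastic (40%, against 3.01% over all genes). Il34 stood at 358 CPM against 9.43 in endothelial cells. Border macrophage markers had few UMIs in the members: their 7 genes had 0 UMIs in endothelial cells, 3 in fibroblasts and 11 in choroid plexus cells. Their library level was low too, at 171 CPM in vehicle and 60.6 in FGF21. Vehicle fibroblasts and choroid plexus cells stood at 25.4% and 27.2% of it, and FGF21 ones at 0% and 24.5%.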
